A study of Mus musculus with 8 samples.

Results

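Line 1, labelled iKPC1, is 1 of 4 mouse pancreatic cancer cell lines in the series, and its 2 RNA sequencing libraries are described here against the 6 libraries of iKPC2, iKPC3 and iKPC4 (lines 2 to 4). The lines come from a genetically engineered mouse model of pancreatic ductal adenocarcinoma (PDAC), and the labels of all 8 libraries list ROSA_rtTA, p48-Cre and an inducible oncogene transgene. ROSA_rtTA is the tetracycline-controlled activator that drives the transgene, and p48-Cre a Cre recombinase expressed in the pancreas. Each line was sequenced with 2 constructs, WT-USP21 and ED-USP21, forms of the deubiquitinase USP21. The labels give the background FVB/C57Bl6 for lines 1 and 2 and C57BL/6 for lines 3 and 4. They name no Trp53 allele, leave ED unexplained, and do not say whether the inducer was present during culture. Each line has 1 library per construct, so 1 line stood against 3, and an exact permutation test of 1 value between 1 line and 3 cannot give a p below 0.25.

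Genes were chosen by comparing the WT-USP21 library of line 1 with the 3 other WT-USP21 libraries, and the ED-USP21 library of line 1 with the 3 other ED-USP21 libraries. A gene was called when its Benjamini-Hochberg adjusted p in the edgeR quasi-likelihood fit was under 0.05, and it was kept when it was called in the same direction in both. Of 17465 genes tested, 2817 were kept, 1769 higher and 1048 lower in line 1. Because these contrasts chose the genes, their log2 differences are given as a description, and no p is attached to them.

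Pancreatic cancer cells differ in how far they keep the traits of the epithelium they arose from. Epithelial cells hold to each other through cadherins, tight junctions and desmosomes, and they carry keratin filaments. In the epithelial to mesenchymal transition, transcription factors of the Snail, Zeb and Twist families, which bind E-box motifs, lower junction genes while vimentin, fibronectin and collagens increase. These tumours are also known for an altered use of glucose, glutamine and serine. The Cdkn2a locus encodes the p16 and p19 proteins, which restrain the cell cycle through the retinoblastoma and p53 pathways.

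Levels are given in CPM (reads of a gene relative to the library's total, with the total scaled by edgeR's TMM factor), and a log2 difference is always line 1 minus lines 2 to 4. The libraries held 72828184 to 107551210 reads in genes. Usp21 reads, in which the endogenous gene and the construct cannot be told apart, stood at 146 CPM with WT-USP21 and 1653 CPM with ED-USP21 in line 1, against 946, 539 and 942 CPM and 3129.7, 1668 and 2717 CPM in lines 2, 3 and 4. The WT-USP21 library of line 1 was therefore the lowest of the 8 for Usp21, and every contrast among WT-USP21 libraries goes with that difference, whose part was not tested. Lines 2 and 4 resemble each other closely and are not shown to be independent. The spread behind the standard errors (SE) below is that among lines 2 to 4 only. The female-specific transcript Xist was read in all 8 libraries, at 334 and 298 CPM in line 1 and 273 to 571 CPM in the others, and the Y-linked genes Ddx3y, Uty, Kdm5d and Eif2s3y had 0 reads in all 8.

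The WT-USP21 contrast called 4487 genes, 25.7% of those tested, with 2556 higher and 1931 lower in line 1. In the ED-USP21 contrast 5006 genes were called (28.7%), 2915 higher and 2091 lower. The kept genes made up 16.1% of those tested, 10.1% being higher and 6% lower, and 57 genes (0.326%) were called in opposite directions. The count of any list called in both constructs below is to be read beside these 10.1% and 6%. Of the kept genes 1376, or 48.8%, were at least 2-fold apart in both contrasts. Between pairs of lines with the same construct, 4054 to 4851 of all 17465 genes were at least 2-fold apart when line 1 was in the pair and 1132 to 2040 when it was not. Genes at the edge of the rule were modest in size. Just inside, Mtfr1l had log2 differences of 0.54 and 0.33 with adjusted p of 0.0214 and 0.0499, and just outside, Dctn4 had 0.43 and 0.52 with 0.0495 and 0.05001. A rule without a test, line 1 at least 2-fold outside the range of lines 2 to 4 in both constructs, held for 1644 genes (9.41%), 762 above and 882 below, of which 1219 were among the kept genes.

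How many were kept depended on which of lines 2 to 4 entered. Leaving out line 2 gave 1462 genes, 902 higher and 560 lower. Leaving out line 4 gave 1837, 1123 higher and 714 lower. Leaving out line 3 gave 5508, 3209 higher and 2299 lower. Counts of a list with a line left out are to be read beside these.

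**Figure D1:**
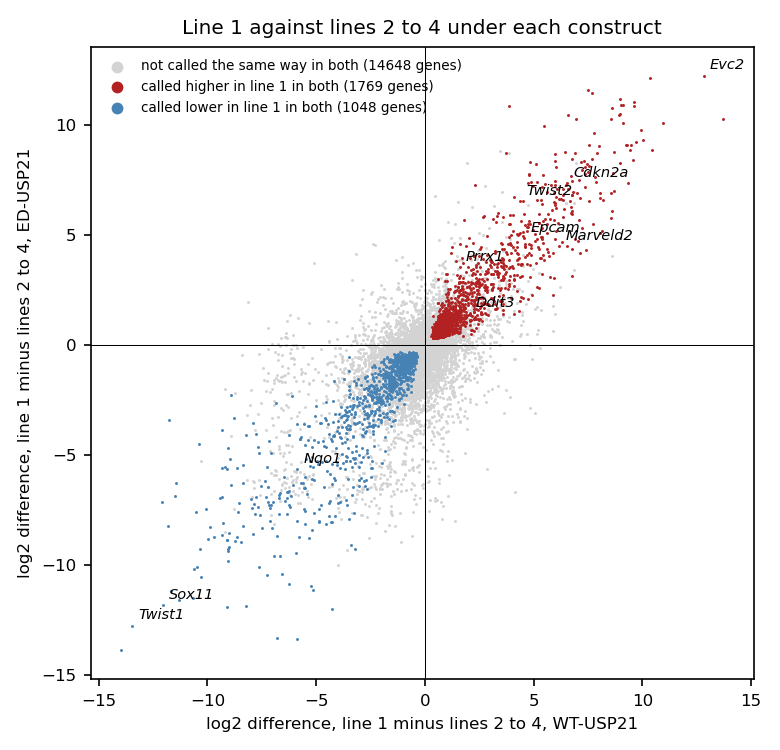
Log2 difference of each tested gene, line 1 minus lines 2 to 4, among WT-USP21 libraries (x axis) and among ED-USP21 libraries (y axis). Each point is a gene. The 1769 genes called higher in line 1 in both contrasts (red) and the 1048 called lower in both (blue) lie along the diagonal because the rule kept agreement in sign, and all other tested genes (grey) spread around the centre.

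Among transcription factors of the epithelial to mesenchymal transition, line 1 had no Twist1 reads and more Twist2 than the other lines. Of 11 such factors tested, 3 were higher in both constructs (Twist2, Prrx1 and Snai2) and 1 was lower (Twist1). Over all genes the shares were 10.1% and 6%. Twist1 (ENSMUSG00000035799) had 0 reads in both libraries of line 1, and stood at 13.4, 13.4 and 18.0 CPM with WT-USP21 and 9.86, 8.74 and 10.7 CPM with ED-USP21 in lines 2, 3 and 4. Set against a floor of 3 reads in the line 1 library, Twist1 was at least 456-fold lower with WT-USP21 and at least 337-fold lower with ED-USP21. Its relative Twist2 (ENSMUSG00000007805) stood at 5.38 CPM with WT-USP21 and 9.21 CPM with ED-USP21 in line 1, against 0.229, 0.126 and 0.43 CPM and 0.135, 0.108 and 0.0514 CPM in lines 2, 3 and 4. The groups did not overlap for either gene, and the 2 genes went in opposite directions. The log2 difference of Twist2 was 4.37 (SE 0.56) with WT-USP21 and 6.55 (SE 0.39) with ED-USP21. Prrx1, a mesenchymal homeobox factor, was low throughout, at 1.58 CPM (WT-USP21) and 4.43 CPM (ED-USP21) in line 1, with 0.537, 0.388 and 0.639 CPM and 0.418, 0.453 and 0.27 CPM in the other lines. Snai2, a Snail family repressor, stood at 15.8 against 4.64, 6.17 and 5.5 CPM with WT-USP21 and 14.9 against 6.76, 5.73 and 5.28 CPM with ED-USP21, with log2 differences of 1.55 (SE 0.20) with WT-USP21 and 1.35 (SE 0.18) with ED-USP21. Zeb1 was close to the other lines, at 75.2 and 74.6 CPM in line 1 and 74.3 to 96.4 CPM elsewhere, and was called in neither construct. Zeb2 was at 24.5 against 24.4, 24 and 24.2 CPM with WT-USP21 and 31.5 against 10.7, 13.7 and 8.26 CPM with ED-USP21, so its WT-USP21 level in line 1 matched the others while its ED-USP21 level lay above them. Without line 2 or without line 4, 2 factors in place of 3 were called higher, and without line 3 the number was 5.

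Genes of cell junctions were called higher in line 1 more often than lower. Of 34 epithelial junction and adhesion genes tested, 12 were called higher in both constructs and 0 lower, beside 10.1% and 6% of all genes. With WT-USP21 alone 19 were called higher and 3 lower, beside 14.6% and 11.1% of all genes. With ED-USP21 alone 12 were higher and 7 lower, beside 16.7% and 12%. The median log2 difference of the 34 was 0.84 with WT-USP21 and 0.19 with ED-USP21, where all genes had -0.04 and -0.03. Epcam (ENSMUSG00000045394), the epithelial cell adhesion molecule, stood at 5.33 CPM with WT-USP21 and 3.39 CPM with ED-USP21 in line 1, against 0.139, 0.22 and 0.314 CPM and 0.189, 0.0648 and 0.103 CPM in lines 2, 3 and 4. The tricellular junction gene Marveld2 (ENSMUSG00000021636) showed 12.8 against 0.209, 0.126 and 0.198 CPM with WT-USP21 and 6.62 against 0.216, 0.237 and 0.437 CPM with ED-USP21. Both genes were near the bottom of detection in lines 2 to 4, and line 1 lay above every other library. Claudin 6 (Cldn6, ENSMUSG00000023906), a tight junction protein of embryonic epithelia, reached 319 CPM (WT-USP21) and 379 CPM (ED-USP21) in line 1, with 24.9, 35.7 and 23.2 CPM and 26.3, 34.1 and 25 CPM in the other lines. Its log2 difference was 3.52 (SE 0.22) with WT-USP21 and 3.76 (SE 0.16) with ED-USP21.

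Some desmosome and protease inhibitor genes were also called higher in both constructs, while the list members Dsp and Spint2 were not. The desmosomal cadherin genes were both called higher, with log2 differences of 3.49 and 2.59 for Dsc2 and 2.58 and 1.78 for Dsg2 (WT-USP21, then ED-USP21). Pkp1, a desmosomal plaque protein, had 2.41 and 2.93, and the membrane serine protease inhibitor Spint1 2.89 and 3.46. P-cadherin (Cdh3) had 1.61 and 1.75. The differences were smaller for Lsr, the lipolysis-stimulated receptor of tricellular junctions, at 1.44 and 0.95, and for the junctional adhesion molecule F11r, at 0.91 and 0.49. Among list members not kept were Cldn3, Cldn4, Cldn7, Ocln, Crb3, Tjp3 and Rab25. Cldn7 was low throughout, at 0.336 CPM with WT-USP21 and 0.317 CPM with ED-USP21 in line 1. In lines 2 to 4 it was at 0.517 to 0.796 CPM. E-cadherin itself was not kept either. Cdh1 stood at 543 against 303, 373 and 289.6 CPM with WT-USP21 and 329 against 458, 420.0 and 476 CPM with ED-USP21, above the other lines with WT-USP21 and below them with ED-USP21.

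The bases before the start of 3 of these junction genes are shown because Snail, Zeb and Twist factors bind E-box motifs, of which CAGGTG is the form typical of Snail and Zeb factors. The letters searched were CAGGTG on both strands, which read CACCTG on the other strand, in RefSeq promoters of GRCm38.p6 running from 250 bases before to 50 bases after the start. Printed are the 250 bases before the start, 5′ to 3′ on the gene's strand, with matches in capitals, for Epcam (chr17:87635729-87635978, plus strand, 2 matches), Lsr (chr7:30973470-30973719, minus strand, 4 matches) and Cldn6 (chr17:23679115-23679364, plus strand, 1 match).
Epcam: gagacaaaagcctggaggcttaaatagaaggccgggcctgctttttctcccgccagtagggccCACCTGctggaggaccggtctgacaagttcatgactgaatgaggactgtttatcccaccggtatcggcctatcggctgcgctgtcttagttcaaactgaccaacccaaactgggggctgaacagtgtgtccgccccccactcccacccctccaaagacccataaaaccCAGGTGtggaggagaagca
Lsr: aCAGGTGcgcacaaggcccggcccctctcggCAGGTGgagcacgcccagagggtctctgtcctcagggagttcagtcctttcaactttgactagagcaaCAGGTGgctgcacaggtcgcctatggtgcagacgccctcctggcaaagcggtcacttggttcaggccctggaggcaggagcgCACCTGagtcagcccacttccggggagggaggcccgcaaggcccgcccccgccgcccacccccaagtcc
Cldn6: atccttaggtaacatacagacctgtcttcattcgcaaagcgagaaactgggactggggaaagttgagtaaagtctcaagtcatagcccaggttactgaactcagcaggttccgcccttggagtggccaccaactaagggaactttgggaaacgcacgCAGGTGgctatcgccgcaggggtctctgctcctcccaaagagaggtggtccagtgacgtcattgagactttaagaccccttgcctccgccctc
Of the 34 tested junction genes 19 had an entry in the promoter table, and 15 of these (78.9%) held the letters at least once. Among the 12 called higher 7 had an entry and 5 held them (71.4%). Counted per gene in the same way, the share was 22.6% over all genes in the table and 21.8% over the tested genes with an entry. The motif is thus frequent in the junction list as a whole, whether or not a gene differed in line 1. A match is a description of the sequence, and no binding was measured.

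Keratin genes gave a smaller difference. Of 12 tested, 3 were called higher in both constructs (Krt79, Krt13 and Krt8) and 0 lower, beside 10.1% and 6% of all genes. The list medians were 0.69 and 0.07. Krt8, a keratin of simple epithelia, stood at 4054 CPM with WT-USP21 and 3735 CPM with ED-USP21 in line 1, against 2255, 2272 and 2130.2 CPM and 2386, 2770.3 and 2633 CPM in lines 2, 3 and 4. Its partner Krt18 was at 4068 and 3732 CPM in line 1 and 2394 to 3537 CPM in the others, and was called with WT-USP21 but not with ED-USP21. The ductal keratin gene Krt19 had 2579 against 1127, 1141 and 962 CPM with WT-USP21 and 1933 against 1453, 1682 and 1712 CPM with ED-USP21, again above the range with WT-USP21, and it was not called with ED-USP21. Of 10 epithelial transcription factors and splicing regulators, 2 were higher, among them Grhl1, and 2 lower (Tfap2a and Klf4). Grhl1, a Grainyhead family factor of epithelia, had log2 differences of 4.23 (SE 0.37) with WT-USP21 and 2.47 (SE 0.37) with ED-USP21. Klf4, a factor of epithelial differentiation and pluripotency, had -0.66 (SE 0.13) with WT-USP21 and -2.12 (SE 0.20) with ED-USP21.

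**Figure D2:**
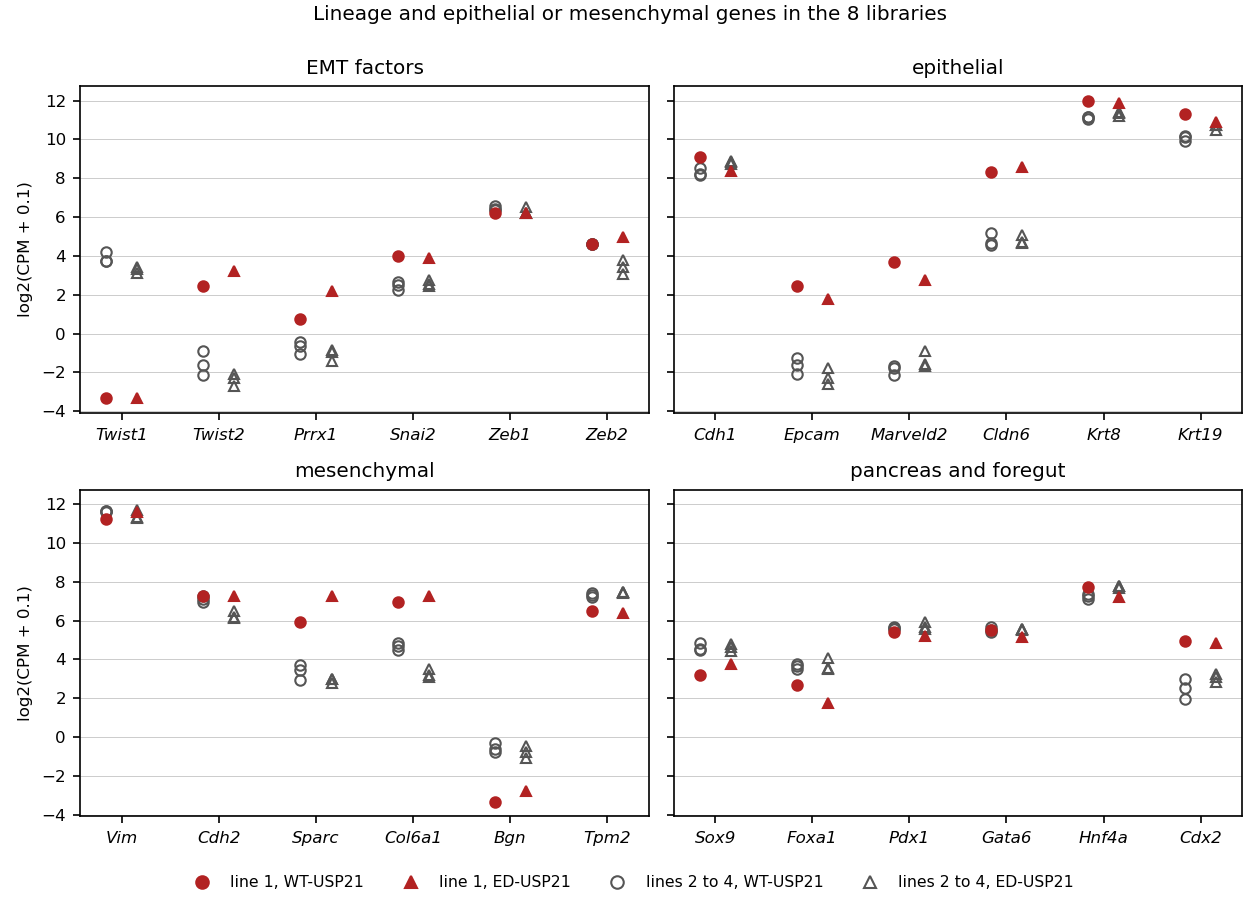
Levels of 24 genes in the 8 libraries, as log2 of CPM plus 0.1, in 4 groups of genes. Filled red symbols are line 1 and open symbols lines 2 to 4 (circles WT-USP21, triangles ED-USP21). Line 1 lies below all other libraries for Twist1 and above them for Twist2, Epcam, Marveld2 and Cldn6, while Zeb1, Pdx1 and Gata6 span a narrow range over all 8.

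Several matrix genes were higher in line 1 as well, and the list leaned that way more with ED-USP21 than with WT-USP21. Of 30 mesenchymal and matrix genes tested, 7 were called higher in both constructs, among them Col6a2, Sparc, Col6a1, Col5a1, Col4a1 and Col4a2, and 2 lower (Bgn and Tpm2). Beside these counts, 10.1% of all genes were higher and 6% lower. The list medians were 0.14 with WT-USP21 and 0.70 with ED-USP21. Col6a1 (ENSMUSG00000001119), a chain of the microfibrillar collagen VI, stood at 122 CPM with WT-USP21 and 156 CPM with ED-USP21 in line 1, against 21.9, 28.3 and 25.8 CPM and 9.11, 11.3 and 8.43 CPM in lines 2, 3 and 4. Sparc (ENSMUSG00000018593), a collagen-binding matrix protein, had 59.8 against 7.58, 13 and 11 CPM with WT-USP21 and 152 against 6.73, 7.83 and 7.75 CPM with ED-USP21. Both were higher in line 1 under each construct, with log2 differences of 2.28 and 4.04 for Col6a1 and 2.52 and 4.37 for Sparc. Col4a1 and Col4a2, the paired collagen IV chains of basement membrane, are on chromosome 8, where many genes were higher in line 1 (given below). Vimentin (Vim) was at 2381 against 3131, 3249 and 3166 CPM with WT-USP21 and 3136 against 2513, 3333 and 2617 CPM with ED-USP21, called lower with WT-USP21 and not called with ED-USP21. N-cadherin (Cdh2) was 152 against 124, 139 and 154 CPM with WT-USP21 and 156 against 68.9, 89.7 and 73.3 CPM with ED-USP21, close to the others with WT-USP21 and above them with ED-USP21. Tropomyosin 2 (Tpm2) was lower, at 88.5 and 82.7 CPM in line 1 against 149 to 181 CPM.

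Regulators of pancreatic and foregut identity leaned lower in line 1 with ED-USP21 but not with WT-USP21. Their median log2 difference was 0.16 with WT-USP21 and -0.43 with ED-USP21, where all genes had -0.04 and -0.03. Of 22 such transcription factors tested, 2 were called higher (Cdx2 and Sox17) and 4 lower (Pax6, Creb3l1, Foxa1 and Sox9) in both constructs. The shares over all genes were 10.1% and 6%. Sox9 (ENSMUSG00000000567), a factor of ductal and progenitor cells, stood at 8.99 CPM with WT-USP21 and 13.6 CPM with ED-USP21 in line 1, against 22.8, 28.7 and 22.5 CPM and 28.1, 24.9 and 21.6 CPM in lines 2, 3 and 4. Foxa1, a pioneer factor of endodermal genes, was at 6.26 against 13.7, 12.6 and 11.3 CPM with WT-USP21 and 3.22 against 16.5, 11.2 and 11.9 CPM with ED-USP21. Line 1 lay below every library of the same construct for both genes. Cdx2 (ENSMUSG00000029646), a factor of intestinal identity, was at 30.3 CPM (WT-USP21) and 29 CPM (ED-USP21) in line 1, with 7.8, 3.83 and 5.7 CPM and 9.26, 6.99 and 8.55 CPM in the other lines, with log2 differences of 2.40 (SE 0.33) with WT-USP21 and 1.83 (SE 0.17) with ED-USP21. Sox17, an endodermal and biliary factor, had 3.60 and 1.40. The pancreatic factor Pdx1 was at 41.9 and 36.5 CPM in line 1, just under the 47.2 to 60.9 CPM of the others, and was called in neither construct. Gata6, which marks well-differentiated tumours, was at 45.5 and 35.6 CPM against 42.6 to 50.3 CPM and was called only with ED-USP21. Hnf4a, an endodermal nuclear receptor, was called higher with WT-USP21 and lower with ED-USP21, at 213 against 153, 164 and 139.8 CPM with WT-USP21 and 147 against 206, 216 and 218 CPM with ED-USP21.

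Of 15 ductal markers tested, 0 were called higher and 3 lower in both constructs (Aqp1, Car2 and Sox9). Over all genes, 10.1% were higher and 6% lower. With WT-USP21 alone 4 were called higher and 4 lower, beside 14.6% and 11.1% of all genes. With ED-USP21 alone 0 were higher and 7 lower, beside 16.7% and 12%. The water channel gene Aqp1 (ENSMUSG00000004655) had 7.07 CPM with WT-USP21 and 4.88 CPM with ED-USP21 in line 1, against 207, 181 and 180.4 CPM and 183, 193 and 211 CPM in lines 2, 3 and 4, and the groups were far apart. Carbonic anhydrase 2 (Car2) had log2 differences of -1.41 (SE 0.17) with WT-USP21 and -1.91 (SE 0.16) with ED-USP21. Of 17 acinar markers listed, 4 passed the filter on low counts, and 2 of these, the digestive enzyme genes Amy1 and Cela1, were called lower in both constructs. The 4 that passed summed to 2.71 and 3.20 CPM in line 1 and to 7.17 to 12.1 CPM in lines 2 to 4. The 7 defining markers, which do not include these 2 genes, were almost unread in all lines, their sum being 0.0384 to 0.152 CPM in line 1 and 0.0298 to 0.116 CPM in lines 2 to 4, with 3 of the 7 at 0 in all libraries.

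Tumour subtype genes called in both constructs went both ways, where over all genes 10.1% were higher and 6% lower. The list medians differed by construct. The classical PDAC list had 0.31 with WT-USP21 and -0.71 with ED-USP21, and the basal-like list 0.44 and -0.14. All genes had -0.04 and -0.03. Of 23 genes of the classical PDAC subtype, 4 were higher in both constructs (Clrn3, Slc40a1, Lgals4 and Cdh17) and 2 lower (Ceacam1 and Cldn18). The lectin gene Lgals4 was at 795 against 50.9, 39.1 and 29.2 CPM with WT-USP21 and 248 against 53.1, 88.2 and 119 CPM with ED-USP21. Intestinal cadherin (Cdh17) had log2 differences of 1.61 and 0.58, and the iron exporter Slc40a1 3.04 and 2.13. The adhesion molecule Ceacam1 was at 0.455 CPM with WT-USP21 and 0.442 CPM with ED-USP21 in line 1, against 24, 19.4 and 16 CPM and 56.2, 38.7 and 50.8 CPM in lines 2, 3 and 4, so line 1 held little of it. Of 14 genes of the basal-like subtype, 5 were higher (Pthlh, Areg, Sprr1a, Hmga2 and Dhrs9) and 1 lower (Tns4). Amphiregulin (Areg), an EGF receptor ligand, was at 146 against 33.5, 27.1 and 31.4 CPM with WT-USP21 and 94.8 against 36.9, 43.7 and 47.3 CPM with ED-USP21. Tensin 4 (Tns4), a focal adhesion protein, was at 339 and 174 CPM in line 1, below the 786 to 1306 CPM of the others. Of 22 HOX genes, Hoxa13 and Hoxb9 were called higher and Hoxd8 lower. Hoxa13, a factor of the hindgut and distal limb, was at 4.34 and 2.73 CPM in line 1 and 0 to 0.0257 CPM elsewhere, and Hoxd8 at 0.0108 and 0.0384 CPM against 2.93 to 4.17 CPM. Without line 2 the basal-like genes called higher numbered 2. Classical genes called lower numbered 1 without line 2 or line 4, and 5 without line 3.

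The genes with the largest differences in both constructs were close to unread on one side. Among genes with at least 5 CPM where they are high, the 12 highest in line 1 were Evc2, Evc, Nr1h5, Ifi202b, Rprl3, Lrmp, Rnf150, Grb10, Khdrbs3, Syt13, Hist1h2al and Cachd1. Evc2 had 9.63 CPM and 6.85 CPM in line 1 and 0 reads in all 6 other libraries, at least 905-fold and at least 558-fold higher against a floor of 3 reads over the 3 libraries. Its partner Evc, which lies next to it in the genome and whose protein acts with that of Evc2 in Hedgehog signalling at the cilium, had 6.46 and 6.3 CPM in line 1 and 0 to 0.0116 CPM in the others. Grb10 (ENSMUSG00000020176), an imprinted adaptor that dampens insulin receptor signalling, was at 80.2 against 0.229, 0.105 and 0.291 CPM with WT-USP21 and 87.7 against 0.0675, 0.054 and 0.0257 CPM with ED-USP21. The nuclear receptor gene Nr1h5 was at 15.1 and 17.8 CPM against 0 to 0.0315 CPM, and the synaptotagmin gene Syt13 at 27 and 26.8 CPM against 0 to 0.209 CPM. Ifi202b, of a cluster of interferon-inducible genes, was at 30.5 and 36.7 CPM against 0 to 0.105 CPM. Ifi202b, the histone sequence Hist1h2al and the RNase P RNA gene Rprl3 have near-identical copies, so their counts are uncertain. Hist1h2al is classed as a processed pseudogene in the GENCODE M21 annotation.

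The 12 lowest were Twist1, Sox11, Slfn8, Ldoc1l, Mylip, Zfp182, Pbp2, Ror2, Grik4, Sulf2, Layn and Disp2. Sox11, a factor of neural and progenitor cells, had 0 reads in both libraries of line 1 and 4.24 to 6.96 CPM in the others, at least 172-fold and 178-fold lower against a floor of 3 reads. Mylip, a ubiquitin ligase that degrades the LDL receptor, had 1 read in each library of line 1 and 4.46 to 5.91 CPM elsewhere, a ratio of 482 (95% counting interval 86.4 to 19056) with WT-USP21 and 549 (98.3 to 21682) with ED-USP21. Sulf2, which removes sulphate groups from heparan sulphate, was at 0.877 CPM with WT-USP21 and 0.49 CPM with ED-USP21 in line 1, against 62, 75.4 and 79.1 CPM and 37.4, 53.2 and 60.8 CPM in lines 2, 3 and 4. The Wnt5a receptor gene Ror2 stood at 0.0325 and 0.0576 CPM in line 1 and 5.33 to 11.8 CPM in the others. Disp2, a relative of the Hedgehog release protein, was at 0.184 and 0.096 CPM against 12.7 to 16.4 CPM, and Layn, a hyaluronan receptor, at 0.184 and 0.096 CPM against 7.49 to 14.9 CPM. In each of these genes line 1 lay below all 6 other libraries.

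The Cdkn2a and Cdkn2b genes were read in line 1 and close to unread in the other lines. Cdkn2a (ENSMUSG00000044303) had 146 CPM with WT-USP21 and 95.9 CPM with ED-USP21 in line 1, against 1.66, 0.105 and 3.03 CPM and 0.229, 0.183 and 1.38 CPM in lines 2, 3 and 4. Its neighbour Cdkn2b (ENSMUSG00000073802), which encodes the related inhibitor p15, had 114 against 0.995, 0.0525 and 2.6 CPM with WT-USP21 and 77.6 against 0.418, 0.205 and 1.16 CPM with ED-USP21. In read numbers, Cdkn2a had 13483 and 9990 reads in line 1, with 167, 10 and 261 (WT-USP21) and 17, 17 and 107 (ED-USP21) in lines 2, 3 and 4. The log2 differences were 6.53 (SE 0.97) with WT-USP21 and 7.37 (SE 0.69) with ED-USP21 for Cdkn2a. Mtap, the next gene in this region and a methionine salvage enzyme, was read in all lines and was also called higher, at 223 CPM (WT-USP21) and 279 CPM (ED-USP21) in line 1, with 154, 149.7 and 160.4 CPM and 141, 147 and 144 CPM in the other lines. The deposited values are per gene and do not separate the p16 and p19 transcripts. The DNA of the locus was not measured.

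Of 26 genes listed with the p53 pathway, 6 were called higher in both constructs and 1 lower, beside 10.1% and 6% of all genes. The list medians were 0.55 and 0.36. The 6 were Cdkn2a, Cdkn2b, Mtap, Ccng1, Rrm2b and Phlda3. The first 3 are neighbours on chromosome 4, so they are not 3 separate observations of the pathway. Mtap, a methionine salvage enzyme, and Cdkn2b are on the list as neighbours of Cdkn2a. Log2 differences were modest for Rrm2b, a ribonucleotide reductase subunit induced by p53, at 1.24 and 1.23, and Phlda3, an inhibitor of Akt, at 0.67 and 0.98, while Gdf15, a stress cytokine, was lower at -0.90 and -1.41. Trp53 itself was at 4.55 and 4.39 CPM in line 1 and 5.46 to 7.06 CPM in the others and was called in neither construct. The p53 target and cell cycle inhibitor Cdkn1a was called with WT-USP21 only, at 15.3 against 7.05, 6.8 and 6.34 CPM with WT-USP21 and 11.9 against 7.26, 9.5 and 7.92 CPM with ED-USP21. Without line 2 the number higher was 3, and without line 3 it was 13.

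Among 26 genes of MAP kinase pathway output, 3 were higher in both constructs (Areg, Ereg and Hmga2) and 7 lower (Hmga1, Phlda1, Spred3, Ccnd1, Hbegf, Spry2 and Epha4). Epiregulin (Ereg) was at 97.4 against 20.4, 17.5 and 20.3 CPM with WT-USP21 and 59.2 against 24.7, 28.7 and 26.6 CPM with ED-USP21, and Hbegf, another ligand of the EGF receptor family, was lower at 257 against 418, 392 and 443 CPM with WT-USP21 and 229 against 317, 394 and 322 CPM with ED-USP21. The chromatin proteins Hmga1 and Hmga2 went in opposite directions: Hmga1 had -1.89 (SE 0.11) with WT-USP21 and -1.44 (SE 0.25) with ED-USP21 and Hmga2 0.70 (SE 0.16) with WT-USP21 and 1.26 (SE 0.29) with ED-USP21. Cyclin D1 (Ccnd1) was at 956 and 1053 CPM in line 1 and 1582 to 2029 CPM in the others. Dusp6, a phosphatase induced by MAP kinase, had log2 differences of -0.10 (SE 0.14) with WT-USP21 and -0.37 (SE 0.33) with ED-USP21 and was not called. The number lower was 4 without line 2 and 2 without line 4. Of 27 targets of YAP and TEAD, 3 were higher (Fjx1, F3 and Wtip) and 2 lower (Nuak2 and Ccnd1). For both lists, the shares over all genes were 10.1% and 6%.

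Genes of amino acid transport and the amino acid stress response held the most genes called higher in line 1 of the 9 metabolic lists plotted. Of 25 tested, 12 were called higher in both constructs and 1 lower (Slc7a3), beside 10.1% and 6% of all genes. The 12 were Ddit3, Sesn2, Chac1, Gls2, Trib3, Gpt2, Slc7a5, Vldlr, Atf4, Slc3a2, Aldh18a1 and Slc38a2. The list medians were 0.68 and 0.37. Atf4 (ENSMUSG00000042406), the transcription factor that turns these genes on when amino acids are short or proteins misfold, stood at 801 CPM with WT-USP21 and 836 CPM with ED-USP21 in line 1, against 393, 418 and 373 CPM and 432, 504 and 459 CPM in lines 2, 3 and 4. Ddit3, the factor CHOP that Atf4 induces, was at 68.6 against 18.6, 13.6 and 17.1 CPM with WT-USP21 and 41.1 against 15.9, 14.9 and 15.1 CPM with ED-USP21. Trib3, a pseudokinase induced by Atf4, was at 162 against 41.4, 37.1 and 34.4 CPM with WT-USP21 and 112 against 50.3, 48.1 and 53.8 CPM with ED-USP21. The lowest line 1 level of each of the 3 exceeded the highest level of lines 2 to 4. Chac1, which degrades glutathione, had log2 differences of 1.89 (SE 0.13) with WT-USP21 and 1.29 (SE 0.10) with ED-USP21. Sesn2, a leucine sensor that restrains mTORC1, had 2.07 (SE 0.12) with WT-USP21 and 1.42 (SE 0.10) with ED-USP21. The 2 chains of the large neutral amino acid exchanger were both higher, Slc7a5 at 1.31 and 0.90 and Slc3a2 at 0.84 and 0.47. Gls2, a glutaminase, was at 21.9 and 18.7 CPM against 6.85 to 9.21 CPM, and Gpt2, a mitochondrial alanine transaminase, at 223 and 167 CPM against 58.7 to 88.1 CPM. Asparagine synthetase (Asns) was at 510.4 against 375, 385 and 344 CPM with WT-USP21 and 528 against 382, 449.7 and 399.8 CPM with ED-USP21 and was called with WT-USP21 only, as was the cystine exchanger Slc7a11. The number called higher was 9 without line 2 or line 4 and 14 without line 3.

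The promoters of 2 of these genes are shown because Atf4 binds, with C/EBP partners, to an amino acid response motif. The letters searched were TGATGNAA, where N is any base, on both strands, in the same RefSeq promoters. Matches are in capitals in the 250 bases before the start of Chac1 (chr2:119350992-119351241, plus strand, 1 match) and Vldlr (chr19:27216770-27217019, plus strand, 1 match, the second of 2 starts in the table).
Chac1: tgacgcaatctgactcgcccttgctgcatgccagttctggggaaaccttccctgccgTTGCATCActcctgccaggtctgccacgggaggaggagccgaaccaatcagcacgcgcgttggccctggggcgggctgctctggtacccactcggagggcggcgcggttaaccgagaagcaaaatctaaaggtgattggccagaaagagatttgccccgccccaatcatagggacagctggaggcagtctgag
Vldlr: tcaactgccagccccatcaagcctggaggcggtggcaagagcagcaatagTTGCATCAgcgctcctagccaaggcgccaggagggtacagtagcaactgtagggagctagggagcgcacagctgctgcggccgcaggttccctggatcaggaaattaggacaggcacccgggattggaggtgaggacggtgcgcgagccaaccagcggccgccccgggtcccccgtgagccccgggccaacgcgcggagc
Of the 25 tested genes 19 had an entry, and 8 of these (42.1%) held the motif. They were Asns, Chac1, Got1, Pycr1, Slc1a4, Slc7a11, Trib3 and Vldlr. Among the 12 called higher 10 had an entry and 3 held it (30%), and the share was 4.51% over all genes in the table and 2.78% over the tested genes with an entry. The list was drawn up from known targets of this pathway, so its share of the motif says nothing about line 1.

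Of 19 serine and one-carbon genes tested, 9 were called higher in both constructs and 1 lower (Ahcy), beside 10.1% and 6% of all genes, with medians of 0.47 and 0.10. With WT-USP21 alone 10 were called higher and 5 lower, beside 14.6% and 11.1% of all genes. With ED-USP21 alone 9 were higher and 2 lower, beside 16.7% and 12%. Among the 9 were Cbs, Aldh1l2, Psph, Mthfd2, Cth, Mthfd2l, Phgdh and Shmt2. Aldh1l2, a mitochondrial enzyme that oxidises formyl-tetrahydrofolate, stood at 155 CPM with WT-USP21 and 127 CPM with ED-USP21 in line 1, against 35.8, 55.2 and 34.7 CPM and 48.3, 62.4 and 45.8 CPM in lines 2, 3 and 4. Cystathionine beta-synthase (Cbs), which opens the transsulfuration route to cysteine, was at 13.9 against 4.87, 4.91 and 4.6 CPM with WT-USP21 and 13.2 against 3.06, 4.78 and 3.47 CPM with ED-USP21. Psph, the last enzyme of serine synthesis, had log2 differences of 1.09 (SE 0.09) with WT-USP21 and 0.79 (SE 0.09) with ED-USP21, whereas Phgdh, its first enzyme, differed less, at 0.44 (SE 0.11) with WT-USP21 and 0.47 (SE 0.10) with ED-USP21. Of the mitochondrial folate enzymes, Mthfd2 had 0.76 and 0.64 (WT-USP21, then ED-USP21), while Shmt2 had 0.47 and 0.40. The number called higher was 5 without line 2 and 5 without line 4.

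**Figure D3:**
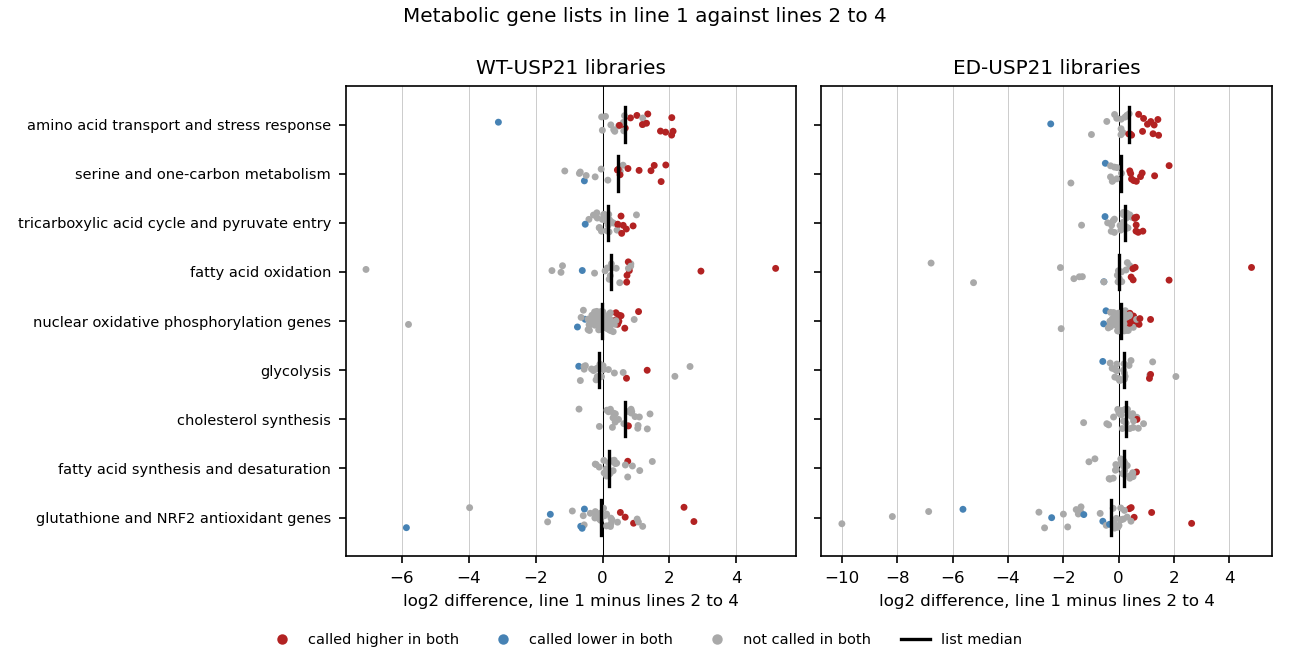
Log2 difference, line 1 minus lines 2 to 4, of the genes of 9 metabolic lists (rows), with WT-USP21 libraries on the left and ED-USP21 libraries on the right. Each point is a gene, red or blue where it was called higher or lower in both, and the black bar is the list median. Medians of the amino acid list are 0.68 and 0.37, and those of nuclear oxidative phosphorylation genes lie near 0.

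Of 30 genes of the tricarboxylic acid cycle and pyruvate entry, 7 were called higher (Dld, Me2, Suclg1, Pdhb, Pdhx, Sdhb and Mdh2) and 1 lower (Sdha), beside 10.1% and 6% of all genes, with medians of 0.15 and 0.23. Dld, the subunit shared by the pyruvate and 2-oxoglutarate dehydrogenases, was at 173 CPM with WT-USP21 and 141 CPM with ED-USP21 in line 1, against 87.6, 94.4 and 95 CPM and 85.6, 99.8 and 87.6 CPM in lines 2, 3 and 4. Of the pyruvate dehydrogenase complex, Pdhb had log2 differences of 0.57 and 0.64, while Pdhx had 0.55 and 0.59. Malic enzyme 2 (Me2) had 0.62 and 0.88. Of 23 fatty acid oxidation genes, 6 were higher (Cpt1c, Ucp2, Acadvl, Acadm, Slc25a20 and Etfdh) and 1 lower (Acadl). Cpt1c, a brain-type carnitine palmitoyltransferase, was at 12 and 9.15 CPM in line 1 and 0.162 to 0.451 CPM elsewhere. Ucp2, a carrier of the mitochondrial inner membrane, was at 170.1 against 19.6, 29.2 and 17.9 CPM with WT-USP21 and 120.3 against 29.1, 38.1 and 36 CPM with ED-USP21. Of 74 nuclear genes of oxidative phosphorylation, 9 were higher and 2 lower, beside 10.1% and 6% of all genes, with medians of 0.00 and 0.10. The most different was Ndufs3, a complex I subunit, at 43.4 against 20.6, 19.4 and 22 CPM with WT-USP21 and 44.1 against 19.4, 21 and 19.8 CPM with ED-USP21, and it lies in a run of neighbours on chromosome 2 of which 12 of 15 were called higher. The 11 mitochondrially encoded genes had medians of -0.54 and -0.27, with wide spread among lines 2 to 4. These counts were lower when a line was left out: tricarboxylic acid cycle genes called higher were 2 without line 2 and 3 without line 4, oxidative phosphorylation genes 2 and 2, and fatty acid oxidation genes 3 and 3.

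Glycolysis genes showed no common direction. Of 22 tested, 2 were higher (Pfkm and Pfkp, both phosphofructokinases) and 1 lower (Gpi1), beside 10.1% and 6% of all genes. The list medians were -0.12 and 0.19. Pfkm was at 149.6 against 59.3, 64.1 and 55.4 CPM with WT-USP21 and 134 against 59, 71.7 and 52.8 CPM with ED-USP21, and Gpi1, the enzyme just before it, at 256 against 445, 438 and 382 CPM with WT-USP21 and 302 against 429, 513 and 425 CPM with ED-USP21. The glucose carrier Slc2a1 had log2 differences of 0.18 (SE 0.11) with WT-USP21 and -0.06 (SE 0.12) with ED-USP21 and was not called, and Ldha, lactate dehydrogenase A, was called lower with WT-USP21 only, at 1103 against 1765, 1544 and 1573 CPM with WT-USP21 and 1608 against 1740.2, 1817 and 1820.0 CPM with ED-USP21. Of 22 hypoxia targets, 2 were higher (Ddit4 and Ndrg1) and 1 lower, the surface carbonic anhydrase Car9, at 1.64 and 1.05 CPM in line 1 and 4.93 to 16.1 CPM in the others.

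In sterol synthesis the result turned on line 3. Of 24 genes tested, 1 was called higher in both constructs, with medians of 0.68 and 0.25. Without line 3 the number was 17. The HMG-CoA synthase gene Hmgcs1 was at 393 against 271, 486 and 249 CPM with WT-USP21 and 314 against 242, 519 and 323 CPM with ED-USP21, so line 3 lay above line 1, and lines 2 and 4 lay below it except for the ED-USP21 library of line 4. Of 25 genes of fatty acid synthesis 1 was called higher (Acsl3, an acyl-CoA synthetase), and 11 were called without line 3. The desaturase gene Scd1 was highest in line 1 and next in line 3, at 812 against 369.6, 599.8 and 349.6 CPM with WT-USP21 and 734 against 429, 663 and 474 CPM with ED-USP21, and was not called.

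The antioxidant genes kept in both constructs went both ways, where over all genes 10.1% were called higher and 6% lower. The list as a whole leaned lower in line 1 with ED-USP21. It summed to 6809 CPM there, against 7415, 8366 and 7996 CPM in lines 2, 3 and 4. With WT-USP21 the sum was 6839 CPM, against 6583, 7067 and 6316 CPM. Of 36 glutathione and NRF2 genes tested, 5 were higher (Hmox1, Gstt1, Gsr, Gclm and Akr1c13) and 5 lower (Nqo1, Gstm1, Gsto1, Fth1 and Keap1), with medians of -0.06 and -0.26. Nqo1 (ENSMUSG00000003849), a quinone reductase and a standard target of the factor NRF2, stood at 0.227 CPM with WT-USP21 and 0.422 CPM with ED-USP21 in line 1, against 12.8, 16.4 and 11.1 CPM and 17.3, 24.9 and 21.4 CPM in lines 2, 3 and 4. Its log2 differences were -5.87 (SE 0.39) with WT-USP21 and -5.62 (SE 0.31) with ED-USP21. Heme oxygenase 1 (Hmox1), another NRF2 target, was higher, at 24.2 against 4.37, 3.05 and 3.55 CPM with WT-USP21 and 21 against 3.43, 2.77 and 4.05 CPM with ED-USP21. Both genes separated line 1 from all other libraries, in opposite directions. Gstm1, a glutathione transferase, was at 25.8 and 20.9 CPM in line 1 against 64.9 to 121 CPM. Keap1, the inhibitor of NRF2, had -0.54 (SE 0.13) with WT-USP21 and -0.33 (SE 0.09) with ED-USP21. Of the 10 genes, Hmox1, Gsr and Nqo1 are on chromosome 8.

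For interferon genes too, the shares over all genes were 10.1% higher and 6% lower in both constructs. Of 33 interferon response and antigen presentation genes, 2 were higher (Oas1a and Ifit1, both under 1 CPM in line 1) and 2 lower. The latter were the GTPase gene Gbp2, at 0.791 and 0.394 CPM against 2.32 to 3.64 CPM, and the non-classical MHC gene H2-T23, at 30.5 and 28.2 CPM against 58.5 to 80.0 CPM.

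The kept genes were not spread evenly over the chromosomes, a feature the rule did not use. Of 12233 tested genes with a mean of at least 1 CPM and a chromosome in the annotation, 12.8% were called higher and 7.32% lower in line 1. On chromosome 8, 252 of 671 genes (37.6%) were higher and 17 (2.53%) lower, and the median log2 difference of all its genes was 0.46 with WT-USP21 and 0.47 with ED-USP21. On chromosome 3, 155 of 622 (24.9%) were higher and 37 (5.95%) lower, with medians of 0.29 and 0.31. On chromosome 7 the order turned, with 38 of 890 (4.27%) higher and 125 (14%) lower, and medians of -0.30 and -0.27. Chromosome 16 had 15 of 366 (4.1%) higher and 46 (12.6%) lower, with medians of -0.21 and -0.21. All genes of this set had medians of 0.04 and 0.06.

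The shift of chromosome 8 was present along its whole length and against each other line. Its genes, in order and split into 4 equal blocks, had medians of 0.50, 0.44, 0.44 and 0.48 with WT-USP21 and 0.55, 0.44, 0.46 and 0.45 with ED-USP21. Taken against lines 2, 3 and 4 one at a time, the chromosome 8 median was 0.45, 0.49 and 0.46 with WT-USP21 and 0.46, 0.42 and 0.46 with ED-USP21. Between lines 2, 3 and 4 themselves it lay between -0.04 and 0.04. On chromosome 7 the 4 blocks had medians of -0.30, -0.21, -0.34 and -0.31 with WT-USP21. Shorter runs stood out too. Of 15 neighbouring genes from Med19 to Ndufs3 on chromosome 2, 12 were called higher, with medians of 1.08 and 1.13, and of 15 from Mrpl32 to Elmo1 on chromosome 13, 10 were. Of 15 from Fsbp to Tmem64 on chromosome 4, 9 were lower, with medians of -1.16 and -0.89. These runs were picked as the most different ones and carry no test. DNA copy number was not measured. Chromosomes and gene order come from the GENCODE M21 annotation, which held 17213 of the 17465 tested genes.

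**Figure D4:**
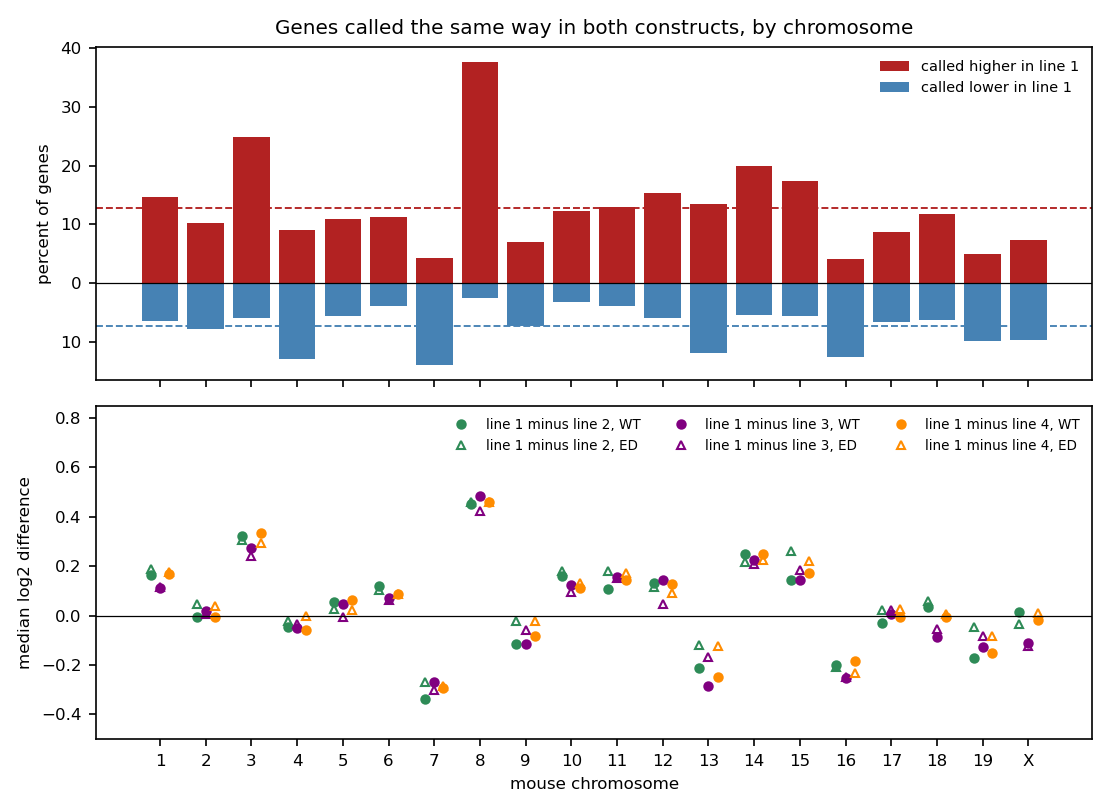
Upper panel: percent of genes on each mouse chromosome called higher (red, up) or lower (blue, down) in line 1 in both constructs, with dashed lines at the values over all chromosomes, 12.8% and 7.32%. Lower panel: median log2 difference of the genes of each chromosome between line 1 and each other line (filled, WT-USP21; open, ED-USP21). Chromosome 8 stands highest in both panels, at 37.6% in the upper one. Chromosome M is not drawn.

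Parts of the lists above lie on chromosome 8. They include 1 of the 12 junction genes called higher (Cdh3), 2 of the 7 matrix genes (Col4a1 and Col4a2), 2 of the 12 amino acid genes (Gpt2 and Slc7a5), 2 of the 9 oxidative phosphorylation genes (Cox4i1 and Ndufa13) and 2 of the 5 antioxidant genes (Gsr and Hmox1). The part of the chromosome in these values was not tested. Among gene classes, 12% of 13644 protein-coding genes were called higher and 6.77% lower, and of 1280 pseudogenes 6.8% and 1.64%, whose reads can come from their parent genes.

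Markers of other cell types were summed over the defining genes of each list. Over 7 immune markers, line 1 had 5.11 to 6.12 CPM and lines 2 to 4 had 9.92 to 16.2 CPM. Nearly all of this was Cd68, and the pan-leukocyte gene Ptprc was at 0.281 CPM or less in every library. Over 9 fibroblast markers the sum was 7.53 to 8.36 CPM in line 1 and 4.82 to 18.3 CPM in the others, with 3 of them at 0 in all libraries. Over 6 endothelial markers it was 0.672 to 2.42 CPM against 0.810 to 7.51 CPM. Over 4 hepatocyte markers it was 1.86 to 2.14 CPM against 10.5 to 14.8 CPM, nearly all of it alpha-fetoprotein (Afp), while albumin (Alb) was at 0 or close to it. The longer lists hold genes that other cells also express, and their sums were larger. Of 9 immune markers listed, the 4 that passed the filter summed to 41.3 to 50.2 CPM in line 1. In the others they summed to 52.4 to 115 CPM, most of it Cd14. Of 6 hepatocyte markers listed, the 3 that passed summed to 1821 CPM with WT-USP21 and 973 CPM with ED-USP21 in line 1. In the others they summed to 466 to 972 CPM. Nearly all of it was apolipoprotein B (Apob), which was called higher in both constructs, while Afp was called lower. In a bulk culture, fewer cells of a type and less RNA per cell cannot be told apart. Markers of epithelial cells, for comparison, summed to 9732 to 11250 CPM in line 1 and 6231 to 8411 CPM in the others. Most of it was Krt8, Krt18 and Krt19, while Esrp1, Cldn7 and Grhl2 were at 0.796 CPM or less in every library. Mesenchymal markers summed to 3368 and 4124 CPM in line 1 and 2840.0 to 4055 CPM in the others, so both kinds were read in all 4 lines.

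The difference between the constructs within a line was the measure the rule did not use directly. For each gene the WT-USP21 minus ED-USP21 difference in line 1 was compared with the same difference in lines 2 to 4 by an interaction term in edgeR, across all 17465 genes, and the interaction is given on the log2 scale with its SE. Genes kept above had to agree in sign under both constructs, which bars a change of sign but not a large change in size. Of the 2817 kept, 82 were called. Over all genes 431 (2.47%) were called, 206 (1.18%) with a larger and 225 (1.29%) with a smaller WT-USP21 minus ED-USP21 difference in line 1. With the line as a block, which pairs the 2 libraries of a line, 1031 were called (5.9%), of which 529 (3.03%) were larger and 502 (2.87%) smaller. Without line 2 edgeR called 0 genes with or without the block, with 1996 at an unadjusted p under 0.05 without it, while DESeq2 called 667 and limma-trend 0. Without line 4 edgeR called 27, DESeq2 526 and limma-trend 0, and without line 3 edgeR called 2294. Usp21 itself had an interaction of -1.87, SE 0.55, adjusted p = 0.135, and with the block an adjusted p of 0.0069. The calls thus depend on which lines are in, and those on the genes below are from the comparison of all 8 libraries, by edgeR with Benjamini-Hochberg adjustment.

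Cell cycle genes made the largest share of any list. Of 35 tested, 22 had a smaller WT-USP21 minus ED-USP21 difference in line 1 and 0 a larger one, and with the line as a block 27 and 0. Their median difference between the constructs was -0.81 in line 1 and between -0.03 and 0.01 in lines 2, 3 and 4. The replication helicase gene Mcm6 was at 140.4 against 341, 354 and 330.2 CPM with WT-USP21 and 319 against 348, 358 and 325 CPM with ED-USP21 in line 1 against lines 2, 3 and 4, with an interaction of -1.18, SE 0.14, adjusted p = 0.0166. Chek1, the kinase that guards replication forks, was at 19.4 against 45.4, 46.5 and 47.4 CPM with WT-USP21 and 40.8 against 43.9, 45.2 and 44.2 CPM with ED-USP21 in the same order, with -1.14, SE 0.13, adjusted p = 0.0166. Top2a, the topoisomerase of dividing cells, had -0.90, SE 0.13, adjusted p = 0.0207. In each case the WT-USP21 library of line 1 was the low one and its ED-USP21 library lay near the other lines. That WT-USP21 library is also the one with the lowest Usp21, and the part of the Usp21 level in this result was not tested. Without line 2, 0 of the 35 were called by edgeR, with 33 at an unadjusted p under 0.05, and by DESeq2 23 were. Without line 4 the numbers were 0, 30 and 21.

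Genes of the classical subtype and of junctions had the opposite sign. Of 23 classical PDAC genes, 5 had a larger WT-USP21 minus ED-USP21 difference in line 1 and 0 a smaller one (10 and 0 with the block), and the median construct difference was 0.82 in line 1 and -0.30, -0.42 and -0.67 in the others. Of 34 junction genes 3 were larger and 0 smaller (7 and 1 with the block), with medians of 0.37 in line 1 and -0.20, -0.17 and -0.26. Cdh1 was among them, with an interaction of 1.21, SE 0.21, adjusted p = 0.0306, and Hnf4a had 1.02, SE 0.15, adjusted p = 0.0212. The 6 genes with the smallest p in this direction were Prom1, Itga7, Muc1, Porcn, Avil and Ivl. Prom1, the stem cell surface protein CD133, was at 19.7 CPM with WT-USP21 and 1.54 CPM with ED-USP21 in line 1, against 23.7, 29.2 and 19.1 CPM and 32.3, 38.2 and 30.3 CPM in lines 2, 3 and 4, with 4.17, SE 0.35, adjusted p = 0.00947. The mucin gene Muc1 was at 168 against 146, 145 and 117 CPM with WT-USP21 and 53.2 against 211, 194 and 199 CPM with ED-USP21, with 2.23, SE 0.20, adjusted p = 0.00947. In both, the ED-USP21 library of line 1 was the lowest of the 8, and its WT-USP21 library lay inside the range of the 6 libraries of the other lines. Without line 2, edgeR called 0 of either list. Without line 4 it called 3 classical and 0 junction genes, and with the block as well 10 and 7.

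Matrix genes had the sign of the cell cycle genes. Of 30 mesenchymal and matrix genes 4 had a smaller difference in line 1 and 0 a larger one (7 and 1 with the block). Without line 2 edgeR called 0 of the 30, with 14 at an unadjusted p under 0.05 and 10 called by DESeq2, and without line 4 it called 0, with 15 and 6. With the block, 0 were called without line 2 and 8 without line 4. The 4 genes in the full fit included Col6a1 (-1.75, SE 0.26, adjusted p = 0.0212) and Sparc (-1.84, SE 0.35, adjusted p = 0.0388). The 6 genes with the smallest p in this direction were Pdk3, Tuba1a, 2810417H13Rik, Chek1, Gm13080 and Fignl1. Pdk3, a pyruvate dehydrogenase kinase, was at 0.141 CPM with WT-USP21 and 1.07 CPM with ED-USP21 in line 1, against 9.67, 9.52 and 10.6 CPM and 5.95, 5.24 and 5.05 CPM in lines 2, 3 and 4, with -3.78, SE 0.33, adjusted p = 0.00947, and was lower in line 1 under both constructs. Tuba1a, an alpha tubulin of neurons, was at 118 against 54.6, 53.4 and 65.7 CPM with WT-USP21 and 172 against 17.6, 20.3 and 18.4 CPM with ED-USP21, with -2.17, SE 0.20, adjusted p = 0.00947.

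**Figure D5:**
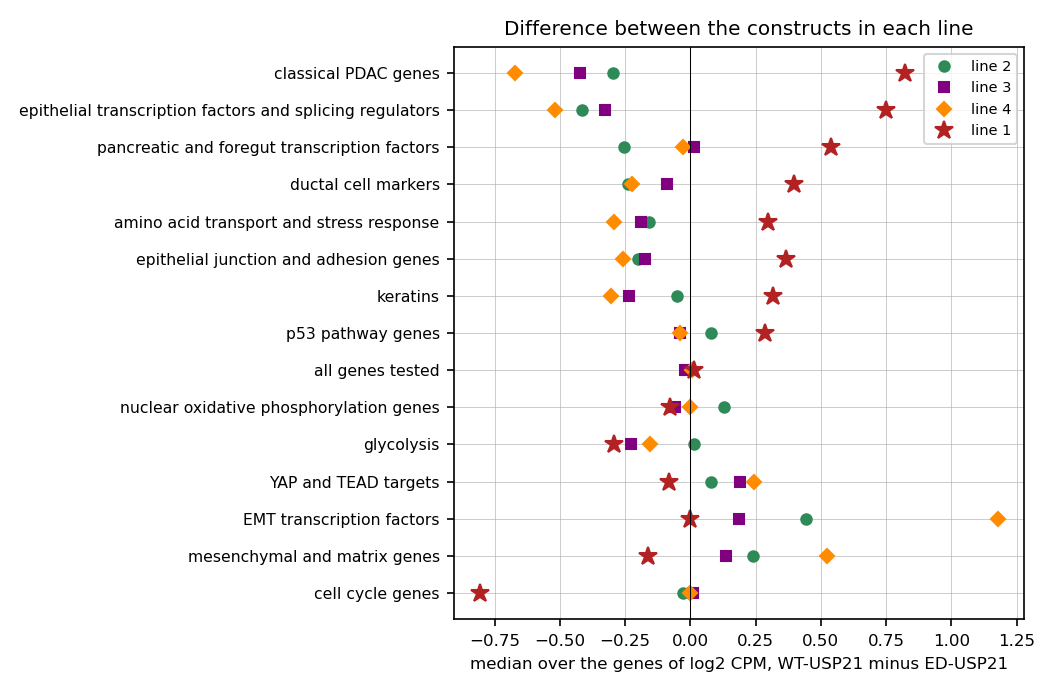
Median over the genes of each list of the log2 CPM difference between the constructs, WT-USP21 minus ED-USP21, in each of the 4 lines. Line 1 (red star) lies at -0.81 for cell cycle genes, where the other lines lie between -0.03 and 0.01, and at 0.82 for classical PDAC genes, where the others lie below 0, while the medians over all tested genes lie near 0 in all 4 lines.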

How the data were processed

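The deposited files hold raw whole-number counts per gene for 8 libraries of total RNA (Qiagen extraction, Illumina sequencing). The authors' tools, per the submitters' processing notes, included STAR, TopHat, HTSeq, Cufflinks and CASAVA, with the build mm9. Versions, roles and the strand setting are not given in the sources used here. Overlapping and antisense genes may share counts. Rows that name no gene held 11.4% to 20.6% of each library's counts and were left out.

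Genes passing edgeR's filterByExpr (17465 of 39179) were fitted with edgeR 4.0.16 in R 4.3.3 (TMM, quasi-likelihood, Benjamini-Hochberg adjustment), once among WT-USP21 libraries and once among ED-USP21 libraries, and with all 8 libraries for the construct difference. The adjusted p threshold was 0.05. limma 3.58.1 (limma-trend), DESeq2 1.42.0, other scalings, filters, a line block and leaving out each line were alternatives. The scripts were tested on simulated data. The 2 libraries of a line come from the same cell line, so the line pairs them. Their deviations from the construct means correlated at 0.78, 0.47, 0.43 and 0.34 in lines 1 to 4. These correlations are a description and do not by themselves show pairing.

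The members and gene lists were chosen with earlier results of these data known. Named genes are 18 standard genes, the 12 highest and the 12 lowest members by the smaller of the 2 log2 differences with a mean of at least 5 CPM on the higher side, up to 5 per list and direction, and 6 per direction of the construct difference. Genes named outside this rule, among them Slc7a11, Dusp6 and Scd1, were chosen after their values were seen. Intervals and floors cover counting error only. Some genes of the lists are not reported here.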

Additional observations from a re-analysis of the deposited data

Results flagged for a closer look

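In each construct, and for the construct difference of each list, the 4 lines give a set of 4 values. Of 56 such sets 8 had 1 line far from the other 3. The sets share the same 4 lines, and some hold values that the rule used. The count is therefore a description and cannot be set against a rate by chance. With WT-USP21, Krt19 was at 2579 CPM in line 1 and 962 to 1141 CPM in the other lines, and Vim was at 2381 CPM in line 1 and 3131 to 3249 CPM in the others. With ED-USP21, Hnf4a was at 147 CPM in line 1 and 206 to 218 CPM in the others. In the same libraries Zeb1 was at 91.2 CPM in line 3 and 74.3 to 75.1 CPM in the other lines, so the line that stood apart for Zeb1 was not line 1.

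The other sets concern the median log2 CPM difference between WT-USP21 and ED-USP21 within a line. It was 0.37 in line 1 for epithelial junction genes (-0.26 to -0.17 in the others) and 0.75 for epithelial transcription factors (-0.52 to -0.33). It was -2.01 for HOX genes (0.08 to 0.33) and -0.81 for cell cycle genes (-0.03 to 0.01). Many HOX genes had few reads.

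For 12 genes the construct difference in line 1 differed from that in lines 2 to 4 by the interaction test of edgeR. The log2 difference of the differences was 2.66 for the integrin gene Itga7, 4.17 for Prom1, 1.48 for the villin relative Avil, 2.23 for Muc1, 1.88 for Porcn, whose product lipidates Wnt proteins, and 3.70 for involucrin (Ivl). It was -3.78 for Pdk3, -2.17 for Tuba1a, -1.33 for 2810417H13Rik, -1.14 for Chek1, -7.43 for Gm13080 and -1.09 for Fignl1. Gm13080 had 1 read in the WT-USP21 library of line 1, so its size depends on the prior count.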

How the results depend on the processing

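Leaving out line 2, 3 or 4 in turn moved the genes called with WT-USP21 over 2058 to 8454, those with ED-USP21 over 3372 to 8872, those called the same way in both over 1462 to 5508, and the construct differences over 0 to 2294. The high ends are without line 3, when only the closely similar lines 2 and 4 set the spread. Other settings gave 1376 genes called the same way when a 2-fold difference was also asked for, 1644 by ranges without a test, and 5941 when the libraries of a line were summed. Construct differences numbered 1031 with the replicate block, 1192 with DESeq2 and 662 without a count filter. With the replicate block and 1 line left out, an alternative added after seeing the data, they numbered 0 to 2355 (850 without line 4). The cause of these moves was not tested. Over all alternatives 12 list medians and 5 differences of genes not called in that contrast changed sign. The medians of ductal (-0.08 to 0.19, without line 3), fibroblast (-0.74 to 0.39, without line 4) and hepatocyte markers (0.13 to -0.21, without line 4) did so with WT-USP21, and that of basal-like PDAC genes (-0.14 to 0.04, without line 4) with ED-USP21. DESeq2 gave 3375 genes called the same way, limma-trend 2479, DESeq2 size factors 2775, no TMM 2731, no filter 2802 and 1 joint fit 3258, all within 1.5 times of 2817. Among genes with a mean of at least 5 CPM the split was 1077 higher and 961 lower in place of 1769 and 1048; it was 1601 and 1666 in place of 2556 and 1931 with WT-USP21 and 1806 and 1819 in place of 2915 and 2091 with ED-USP21. The ranges without a test gave 762 higher and 882 lower. Over all alternatives, 81 of 340 list counts and 62 of 340 list medians moved beyond the limits set for them. Leaving out a line changed several list counts by over 1.5 times: without line 3, keratins called higher were 5, pancreatic factors called lower 7 and cell cycle genes lower 10. With 1 line against 3, a trait of line 1 cannot be told apart from a trait of its 1 library per construct.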
